A study of Rattus norvegicus with 6 samples.

Results

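The 9 genes described here are stress-response targets of the transcription factor p53: *Mdm2*, *Ccng1*, *Gadd45a*, *Btg2*, *Phlda3*, *Zmat3*, *Tp53inp1*, *Sesn1* and *Sesn2*. They were chosen by name, with earlier results of these data known. They were taken as the non-control spots whose gene name in the array files equals a listed symbol. All 9 were on the array, among 18941 genes with a symbol. They had 12 of the 45598 probes, 1 for each gene except *Tp53inp1*, which had 4. Where a gene had several probes, the probe with the highest mean over all 6 arrays stood for it.

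The samples were β-cells of young adult male Wistar rats, sorted from 3 islet preparations that each pooled the islets of 4 rats. Islets of both groups had been cultured overnight at basal glucose with the thymidine analogue EdU, dispersed, loaded with the zinc dye Newport Green, fixed, permeabilized and sorted by size, granularity and green fluorescence, and no other treatment set the groups apart. Cells that carried EdU were the replicating group (n = 3 arrays) and cells without it the quiescent group (n = 3 arrays), with 1 array of each from every preparation, and their amplified cDNA was hybridized to 1-colour Agilent arrays. EdU marks DNA synthesis at any time during the culture, so a labelled cell need not have been in S phase when it was sorted.

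The protein p53 is held at a low level by the ubiquitin ligase MDM2 and accumulates when DNA is damaged or cells are stressed. It then binds DNA at paired half-sites and activates genes that slow the cell cycle, repair DNA, lower growth signalling or start cell death, and *Mdm2* is itself a target, which closes a feedback loop. In β-cells, which divide rarely, this pathway is known as a brake on proliferation.

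The promoters of 7 of the 9 genes were found in the RefSeq sequences of the rat assembly GRCr8, each as a window of 300 bases from 250 before to 50 after the gene's start, and those of *Tp53inp1* and *Zmat3* were not matched. Windows were searched on both strands, as the motif is its own reverse complement, for a pair of p53 half-sites of 10 bases each with a gap of up to 13 bases. A pair that matched at least 18 of 20 positions was found for 3 of the 7 genes and for 9.84% of all 33469 promoters. The stretches are shown because these genes are named as p53 targets, with the paired half-sites in capitals, on the strand of the gene, from chr10:25685079-25685126 (*Ccng1*, minus strand), chr4:97486818-97486888 (*Gadd45a*, minus strand) and chr20:46948514-46948576 (*Sesn1*, plus strand).
Ccng1: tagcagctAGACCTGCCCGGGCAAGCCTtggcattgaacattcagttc
Gadd45a: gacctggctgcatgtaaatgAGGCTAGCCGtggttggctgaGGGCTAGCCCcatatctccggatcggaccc
Sesn1: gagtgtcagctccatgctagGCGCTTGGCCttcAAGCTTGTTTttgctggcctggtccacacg

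The *Ccng1* pair matched 19 of 20 positions with a gap of 0 bases and began at position -242 from the gene's start. The *Gadd45a* pair matched 19 positions with a gap of 11 bases from -69, and the *Sesn1* pair 18 positions with a gap of 3 bases from -185. Each of these 3 windows held 1 exact half-site, as did 7.98% of all promoters. In the other 4 windows (*Mdm2*, *Btg2*, *Phlda3* and *Sesn2*) the best pair matched 15 or 16 positions, and 89.5% of all promoters reached 16. A match says only that these letters are present, and no binding was measured.

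Across the series, 2023 probes (4.44%) were higher and 1905 (4.18%) lower in replicating cells. A call here and below means an unadjusted p up to 0.05 in limma and a log2 ratio of 1 or more in either direction. These are the thresholds the study used. The study itself reported larger counts at them, with a greater excess of higher over lower, and the reason for this difference was not tested. After adjustment no probe (0 of 45598) passed 0.05, while 4379 (9.6%) passed 0.05 before it, so every call on the 9 genes rests on the unadjusted threshold, and the adjusted p is printed beside it. An exact paired permutation test over 3 preparations cannot give a two-sided p below 0.25. Scaling arrays to their 75th percentile changed the split to 662 higher and 3193 lower for the processed signal and 1596 and 5862 for background-corrected values, and the median log2 ratio of all genes was then -0.45 and -0.27. The quiescent arrays differed among themselves (r from 0.654 to 0.867) more than the replicating arrays did (r from 0.967 to 0.986), and quiescent array 2 had 1583 outlier spots against 252 to 299 on the other arrays. The share of probes well above background was 96.4% and 98.4% on quiescent arrays 1 and 2. It was 85.7% on quiescent array 3 and 80.8% to 87.3% on the replicating arrays. All 6 proliferation markers (*Mki67*, *Pcna*, *Cdk1*, *Top2a*, *Ccnb1* and *Plk1*) passed as higher in replicating cells, with a median log2 ratio of 3.57. β-cell markers were well above background on all arrays (11 of 11 on the array). Their summed linear levels were 295979 to 382728 on replicating and 199481 to 442567 on quiescent arrays. *Ins1*, *Ins2* and *Iapp* made up most of these sums and were the 3 with a ratio above 0. The other 8 had a ratio below 0, and 1 of them (*Mafa*, -1.01) was called lower. The median of the 11 was -0.23.

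Of the 9 p53 targets, 3 were higher in replicating β-cells (*Phlda3*, *Gadd45a* and *Mdm2*), which is 33.3% beside 5.73% of all genes. None was lower (0 of 9), beside 2.73% of all genes. The 3 genes were 2.90 to 3.47 times as high in replicating as in quiescent cells. The ratio of the other 6 was between 0.34 and 1.24 on the log2 scale and did not pass. In samples of many cells, a larger share of cells that express a gene cannot be told apart from more RNA per cell. Every probe of the 9 genes was well above background on all 6 arrays and no spot was saturated.

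**Figure D1:**
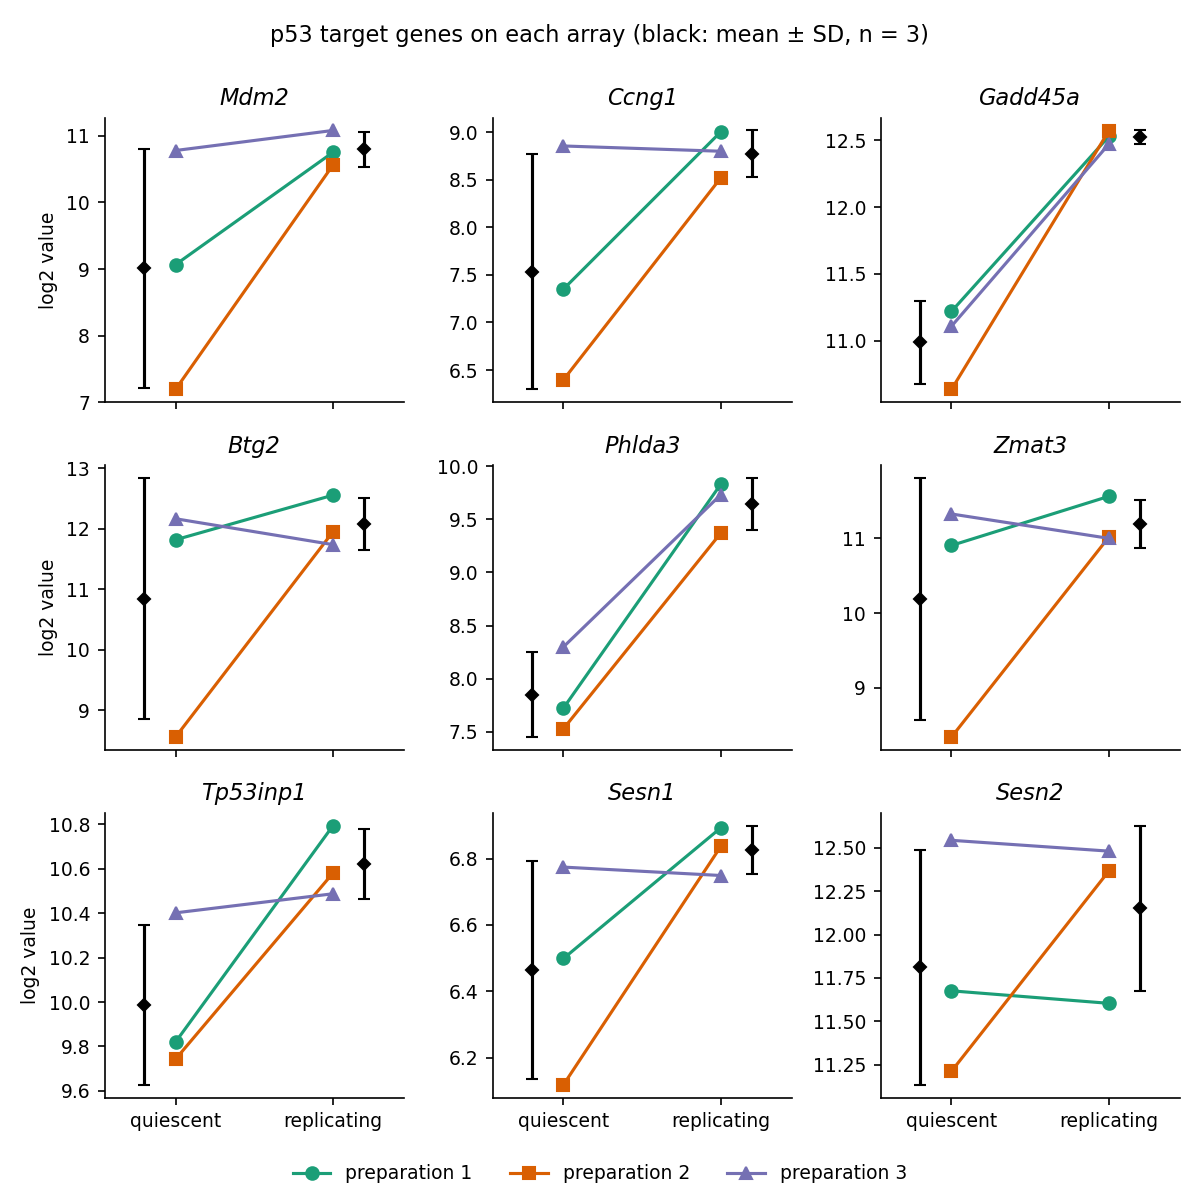
Log2 value (vertical axis, its own range in each panel) of the 9 p53 target genes in quiescent and replicating β-cells (horizontal axis). Lines join the arrays of 1 preparation and black diamonds with bars are the mean ± SD of 3 arrays. *Gadd45a* and *Phlda3* are higher on all replicating arrays, and each gene is lowest on quiescent array 2.

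*Mdm2* encodes the ubiquitin ligase that marks p53 for degradation. Its probe lies at chr7:56996880-56996939 on the minus strand of the rat build rn4, the build of the array files, which do not say which part of a gene a probe matches. The log2 value was 10.75, 10.56 and 11.08 on replicating arrays 1, 2 and 3, and 9.07, 7.19 and 10.78 on quiescent arrays 1, 2 and 3. The replicating arrays lay close together, whereas the quiescent arrays spread over more than 3 log2 units, and the highest of them overlapped the replicating group. The log2 ratio was 1.78 (SE 0.63, 95% confidence interval 0.18 to 3.39, adjusted p = 0.475 in limma). It passed the call, and *Mdm2* was higher in 3 of 3 preparations, by 1.68, 3.36 and 0.30. The call depended on the arrays and the processing. It was lost without preparation 1 (ratio 1.83, adjusted p = 0.966 in limma), without preparation 2 (0.99, adjusted p = 0.928) and with the pairing by preparation, the block, left out of the fit (1.78, adjusted p = 0.541). It was also lost with Feature Extraction's processed signal scaled to the 75th percentile (1.44, adjusted p = 0.479 in limma). Its 2 spots on each array differed by at most 0.11.

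*Gadd45a*, *Ccng1* and *Btg2* act on the cell cycle. GADD45A binds PCNA and CDK1 and takes part in DNA repair and the G2-M checkpoint, cyclin G1 recruits the phosphatase PP2A to MDM2, and BTG2 is an antiproliferative protein that recruits the CCR4-NOT deadenylase to mRNA. *Gadd45a* (probe at chr4:96650454-96650513, minus strand, rn4) read 12.53, 12.57 and 12.47 on the replicating arrays and 11.22, 10.64 and 11.11 on the quiescent arrays. The groups did not overlap, and the replicating arrays were within 0.1 log2 units of each other (mean 12.52 ± 0.05 against 10.99 ± 0.31, SD, n = 3). It passed, with a log2 ratio of 1.54 (SE 0.33, 95% confidence interval 0.71 to 2.37, adjusted p = 0.475 in limma), and the differences by preparation were 1.31, 1.94 and 1.36.

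*Ccng1* (probe at chr10:25776868-25776927, minus strand, rn4) read 9.01, 8.52 and 8.80 on the replicating arrays and 7.35, 6.40 and 8.85 on the quiescent arrays. Quiescent array 3 was as high as the replicating arrays and the other quiescent arrays were lower. A log2 ratio of 1.24 (SE 0.51, -0.06 to 2.54, adjusted p = 0.475 in limma) did not pass. It passed without preparation 3 (1.89, adjusted p = 0.153) and with smaller normexp offsets or cyclic loess.

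*Btg2* (probe at chr13:47027022-47027081, minus strand, rn4) read 12.56, 11.95 and 11.74 on the replicating arrays and 11.82, 8.56 and 12.17 on the quiescent arrays. Quiescent array 2 stood more than 3 log2 units below every other array, and the remaining quiescent values lay among the replicating ones. The ratio of 1.23 (SE 0.77, -0.72 to 3.19, adjusted p = 0.502 in limma) did not pass, with differences of 0.74, 3.39 and -0.43. Without preparation 2 the ratio was 0.15, and without preparation 3 it was 2.07 and passed (adjusted p = 0.208 in limma).

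*Phlda3*, *Zmat3* and *Tp53inp1* act in survival signalling, RNA control and cell death. PHLDA3 competes with AKT for membrane phosphoinositides through its PH domain and so lowers AKT signalling, and in islet cells it is known as a suppressor of neuroendocrine tumours. The sequence of its probe is shown because it gave the smallest p-value among the 9 genes, together with those of the first *Tp53inp1* probe and of both sestrins, 60 bases each, 5′ to 3′. No part is marked.
Phlda3: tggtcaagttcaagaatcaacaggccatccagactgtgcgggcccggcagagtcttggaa
Tp53inp1: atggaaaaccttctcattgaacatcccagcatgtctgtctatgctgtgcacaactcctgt
Sesn1: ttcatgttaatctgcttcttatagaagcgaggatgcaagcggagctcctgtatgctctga
Sesn2: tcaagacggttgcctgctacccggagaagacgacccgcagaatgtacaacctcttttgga

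*Phlda3* (probe at chr13:48790295-48790354, plus strand, rn4) read 9.83, 9.37 and 9.73 on the replicating arrays and 7.72, 7.53 and 8.30 on the quiescent arrays. Every replicating array was at least 1 log2 unit above every quiescent array. *Phlda3* passed, with a log2 ratio of 1.80 (SE 0.33, 0.97 to 2.62, adjusted p = 0.387 in limma), and the differences by preparation were 2.11, 1.84 and 1.43. Its mean was 9.65 ± 0.24 in replicating and 7.85 ± 0.40 in quiescent cells (SD, n = 3).

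*Zmat3*, which encodes a zinc finger protein that binds RNA and regulates splicing and mRNA stability, has its probe at chr2:118537633-118537692 (rn4). It read 11.56, 11.01 and 11.00 on the replicating arrays and 10.90, 8.34 and 11.32 on the quiescent arrays. As for *Btg2*, only quiescent array 2 stood far below the rest, and quiescent array 3 lay above 2 of the replicating arrays. Its ratio of 1.00 (SE 0.63, -0.60 to 2.60, adjusted p = 0.504 in limma) did not pass, and it was 0.17 without preparation 2.

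TP53INP1 is a nuclear and autophagosomal protein that promotes phosphorylation of p53 and cell death. The 4 probes of *Tp53inp1* lie on chromosome 5 of rn4 and begin at 25009229, 25009857, 25011953 and 25016967 on the plus strand. The brightest probe, the third along the gene, read 10.79, 10.58 and 10.49 on the replicating arrays and 9.82, 9.74 and 10.40 on the quiescent arrays. The groups did not overlap, although quiescent array 3 came within 0.1 of the lowest replicating array. This probe gave a log2 ratio of 0.63 (SE 0.35, -0.25 to 1.52, adjusted p = 0.485 in limma) and did not pass.

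The other *Tp53inp1* probes gave larger ratios. The first gave 1.33 (SE 0.58) and did not pass the p. The second gave 1.00 (SE 0.36), passed the p and, unrounded, fell just short of the ratio. The last, 7738 bases beyond the first, read 9.67, 9.22 and 9.30 on the replicating and 7.54, 6.26 and 8.40 on the quiescent arrays. These groups did not overlap, and the ratio of 1.99 (SE 0.48, 0.78 to 3.21, adjusted p = 0.475 in limma) passed. All 4 probes were higher in replicating cells in each of the 3 preparations, least in preparation 3, and with the median over the probes *Tp53inp1* passed (1.59, adjusted p = 0.469 in limma).

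**Figure D2:**
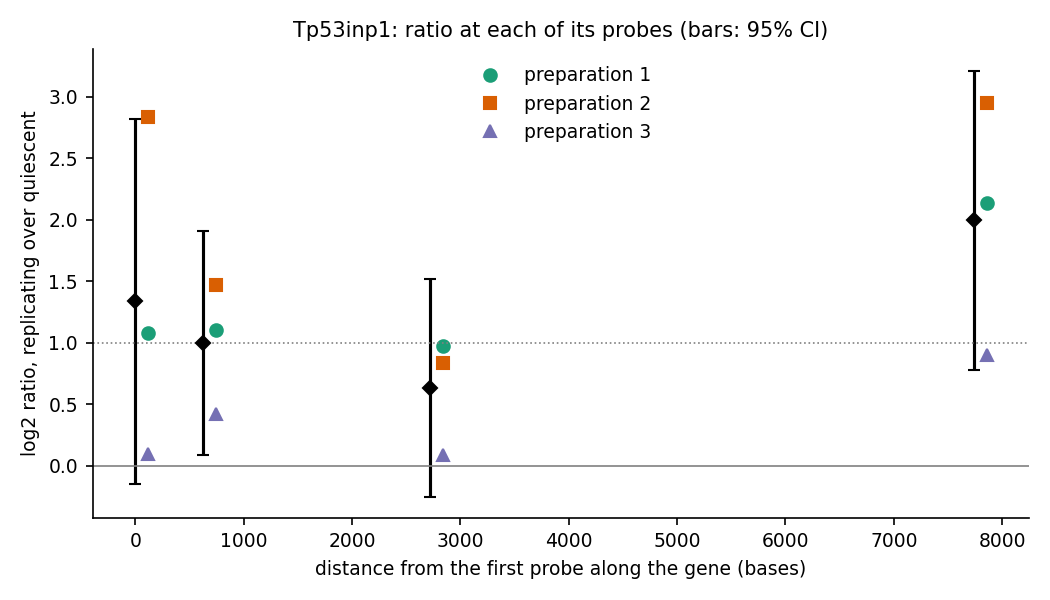
Log2 ratio of replicating over quiescent β-cells (vertical axis) at the 4 probes of *Tp53inp1* against their distance from the first probe in bases (horizontal axis). Diamonds with bars are the limma ratio and its 95% confidence interval, coloured points (set slightly to the right) the 3 preparations, and the dotted line a ratio of 1. The probe at 7738 bases gave 1.99, the brightest, at 2724 bases, 0.63.

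The sestrins *Sesn1* and *Sesn2* encode leucine-responsive proteins that bind the GATOR2 complex and restrain mTORC1. Neither differed beyond the spread between arrays. *Sesn1* (probe at chr20:45876719-45876778, plus strand, rn4) read 6.89, 6.84 and 6.75 on the replicating arrays and 6.50, 6.12 and 6.77 on the quiescent arrays. Its raw signal was only 2.36 to 3.47 times the local background, and with a normexp offset of 0 in place of 50 its ratio was 0.87 without passing. Its ratio was 0.36 (SE 0.33, -0.48 to 1.20, adjusted p = 0.607 in limma), and its sign turned with Feature Extraction's processed signal scaled to the 75th percentile (-0.29, where the median of all genes was -0.45).

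*Sesn2*, whose probe has no position in the array files, read 11.60, 12.37 and 12.48 on the replicating arrays and 11.68, 11.21 and 12.54 on the quiescent arrays. It was higher in replicating cells only in preparation 2, by 1.15, with differences of -0.07 and -0.06 in the others. A ratio of 0.34 (SE 0.39, -0.66 to 1.34, adjusted p = 0.682 in limma) resulted, and -0.07 without preparation 2. The interval leaves room for a change of more than 2-fold in favour of replicating cells.

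**Figure D3:**
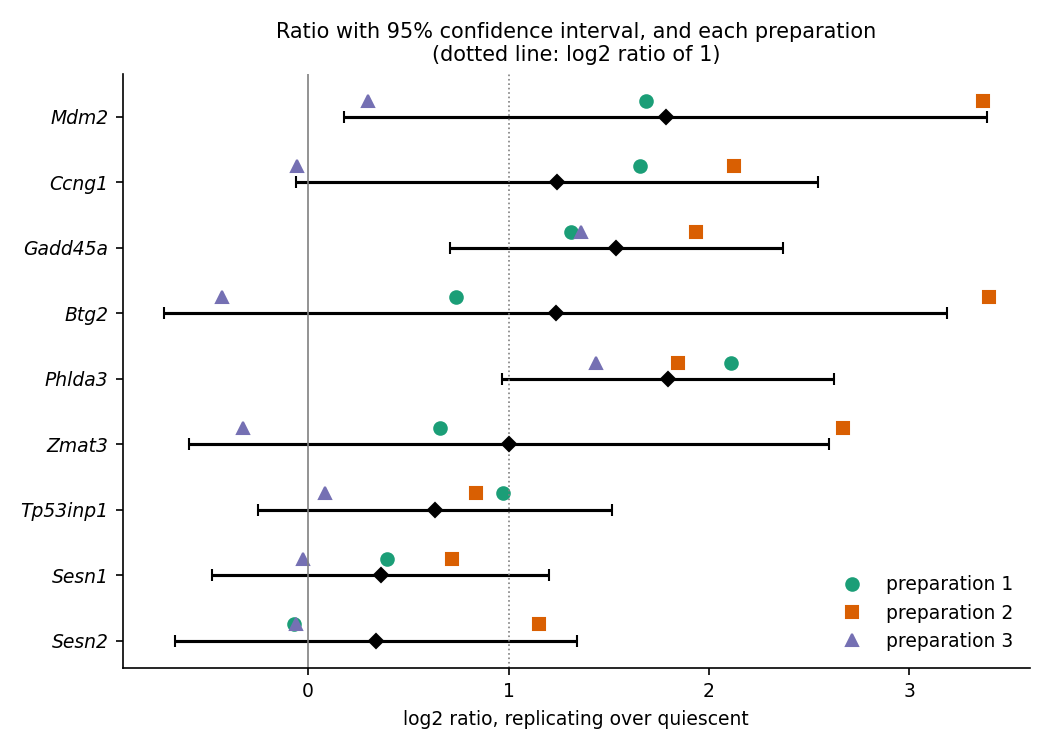
Log2 ratio of replicating over quiescent β-cells (horizontal axis) for the 9 genes (vertical axis). Diamonds with bars are the limma ratio with its 95% confidence interval and coloured points the 3 preparations, with a ratio of 1 dotted. The intervals of *Mdm2*, *Gadd45a* and *Phlda3* lie above 0, and the preparation 3 points of *Ccng1*, *Btg2*, *Zmat3*, *Sesn1* and *Sesn2* lie below it.

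The ratio was above 0 for 9 of 9 genes, beside 50.2% of all genes, with *Sesn1* below 0 under the processed signal and *Sesn2* below 0 without preparation 2. The median log2 ratio was 1.23, against 0.00 over all genes. By preparation the median of the 9 was 0.97, 1.94 and -0.03, against 0.09, 0.07 and -0.05 over all genes. Relative to the median of all genes, the median of the 9 was 1.40 with the processed signal, 1.05 with background-corrected values scaled to the 75th percentile and 0.67 with cyclic loess. Preparation 3 showed little of the difference: 4 of 9 genes were higher there, and only *Gadd45a* and *Phlda3* by more than 1. In all 3 preparations 4 genes were higher (*Mdm2*, *Gadd45a*, *Tp53inp1* and *Phlda3*), beside 17.9% of all genes, and 3 had groups that did not overlap (*Gadd45a*, *Tp53inp1* and *Phlda3*), beside 10.9%.

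The 9 genes shared their lowest array: each read lowest on quiescent array 2, as did 38.4% of all genes. Centred on each gene's own mean, they averaged 0.65, 0.46 and 0.54 on the replicating arrays and -0.40, -1.55 and 0.29 on quiescent arrays 1, 2 and 3. Quiescent array 3 was thus nearer to the replicating arrays than to the other quiescent ones. The part of array quality in this pattern was not tested. Without preparation 2 the median ratio of the 9 genes was 0.53, and with quiescent array 2 alone left out and no block it was 0.51. *Gadd45a* (1.36) and *Phlda3* (1.63) still passed with that array left out, and *Mdm2* (0.87, adjusted p = 0.753 in limma) did not.

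**Figure D4:**
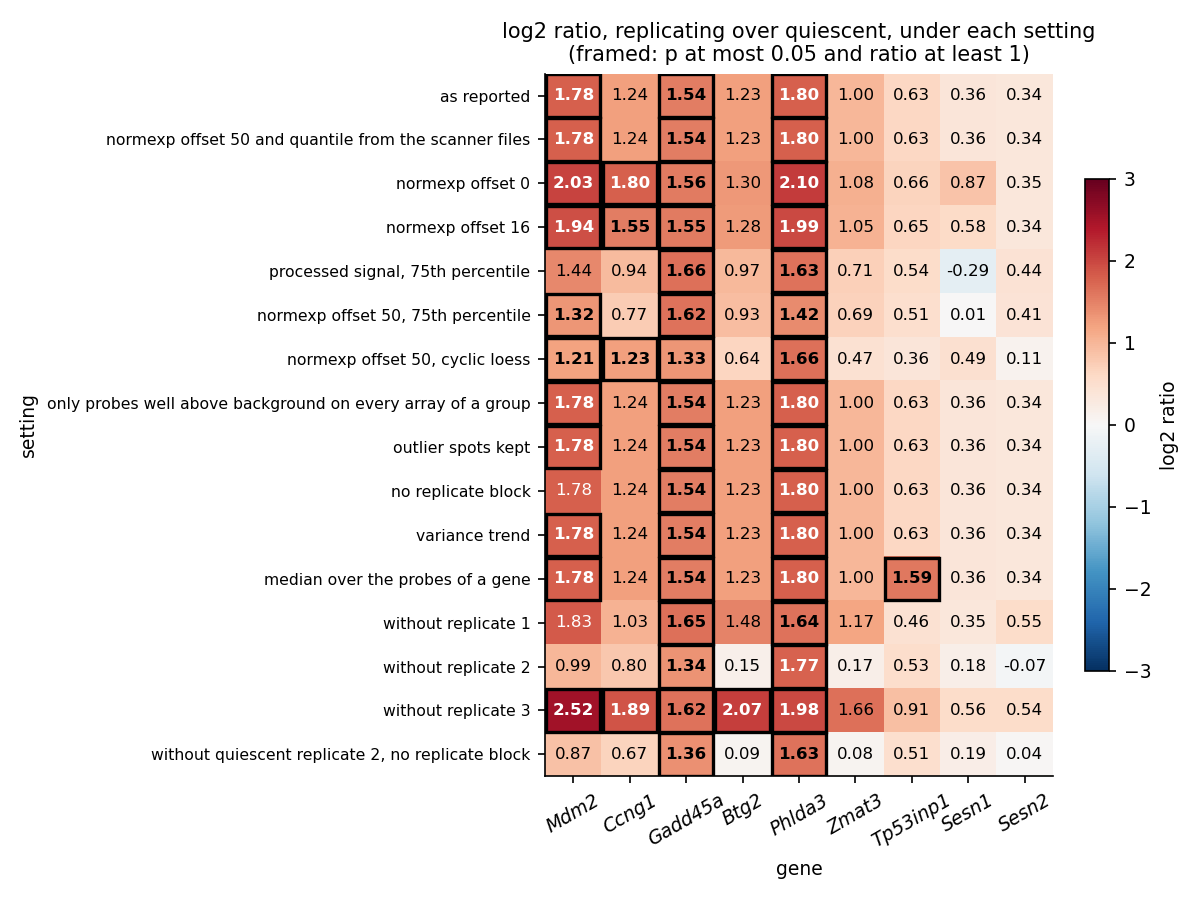
Log2 ratio of each of the 9 genes (horizontal axis) as reported and under 15 other settings (vertical axis), with the colour scale in log2 units. Frames mark calls (a ratio from 1 up and an unadjusted p up to 0.05). *Gadd45a* and *Phlda3* are framed in each row, *Mdm2* is not in 5 of the 15, and *Sesn1* turns negative under the processed signal and *Sesn2* without replicate 2.

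*Gadd45a* and *Phlda3* passed under all 15 other settings, with ratios of 1.33 to 1.66 and 1.42 to 2.10. The number of genes that passed ranged from 2 to 5: it was 5 without preparation 3, when *Ccng1* and *Btg2* were added, and 2 in the 5 settings in which *Mdm2* was lost. The share of all genes called higher moved too. It was 5.73% as reported, and 1.64%, 4.56% and 13.9% without preparations 1, 2 and 3.

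Markers of some other cell types also moved with the groups. All 12 fibroblast and stellate cell markers had a ratio above 0 and 5 passed, among them *Col1a2* (2.93) and *Col3a1* (3.04), while *Col1a1* (1.54) did not. The summed linear level of the 12 was 14992 to 42397 on replicating and 6089 to 6844 on quiescent arrays. The alpha cell markers summed to 23702 to 91976 against 6692 to 20044 (2 of 8 passed, with *Gcg* at 2.39). *Gcg* was by far the brightest of the 8 and made up most of this sum, and 3 of the 8 had a ratio below 0. The delta and PP cell markers summed to 5189.6 to 9842 against 2119.6 to 4068 (3 of 4 passed). The summed levels of acinar, duct, endothelial and immune markers overlapped between the groups, with 1 of 8, 1 of 6, 0 of 6 and 2 of 7 passing as higher. Of all genes, 5.73% were called higher. Each marker was well above background on at least 1 array. Their part in the ratios of the p53 targets was not tested.

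Of 21 regulators of p53 on the array, 1 was higher (*Ppp1r13l*, the inhibitor iASPP, 1.40, SE 0.36) and 0 were lower, with a median of 0.22. That is 4.76% higher, near the 5.73% of all genes. A second *Ppp1r13l* probe gave -0.09. *Mdm4*, the partner of MDM2, gave 0.58 (SE 0.43) at its brightest probe and did not pass. Its other probes gave 1.83 (SE 0.43) and 1.55 (SE 0.48), which passed.

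Among 40 other p53 targets on the array, 9 were higher (22.5%, beside 5.73% of all genes) and 0 lower. Of their ratios 29 were above 0, with a median of 0.64 (0.43, 1.19 and 0.11 by preparation). The count of those higher was 5 without preparation 1 and 14 without preparation 3, when 1.64% and 13.9% of all genes were higher. *Cdkn1a*, the inhibitor p21 that arrests the cycle, read 11.77, 11.60 and 12.51 on the replicating and 10.45, 8.46 and 11.26 on the quiescent arrays. Its groups did not overlap, and its ratio was 1.91 (SE 0.49, adjusted p = 0.475 in limma) at a probe printed on 10 spots and 3.27 (SE 0.83) at another. *E2f7*, an E2F repressor that is itself transcribed in cycling cells, had the largest ratio of the list, 4.17 (SE 0.59, adjusted p = 0.227 in limma), but its second probe gave 0.01. The ephrin receptor gene *Epha2* gave 2.02, the Polo-like kinase gene *Plk2* 2.09, the death receptor gene *Fas* 2.05 (0.045 at a second probe) and the translesion polymerase gene *Polh* 2.12 (0.49 at a second probe). The cell death effectors *Bax* (0.32), *Bbc3* (0.96) and *Pmaip1* (-0.56, well above background on 2 arrays), chosen after their values were seen, did not pass. They do not stand for every death gene of the list, which also holds *Fas*. *Ei24* (1.93), which passed, and *Perp* (1.58), which did not, were also among the 40 and likewise chosen after their values were seen. Of the 40, 11 had a ratio below 0. Among these, *Spata18* (-0.92) and *Gls2* (-0.77), also chosen after their values were seen, did not pass. Both were lower in replicating cells in every preparation, and their groups did not overlap.

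**Figure D5:**
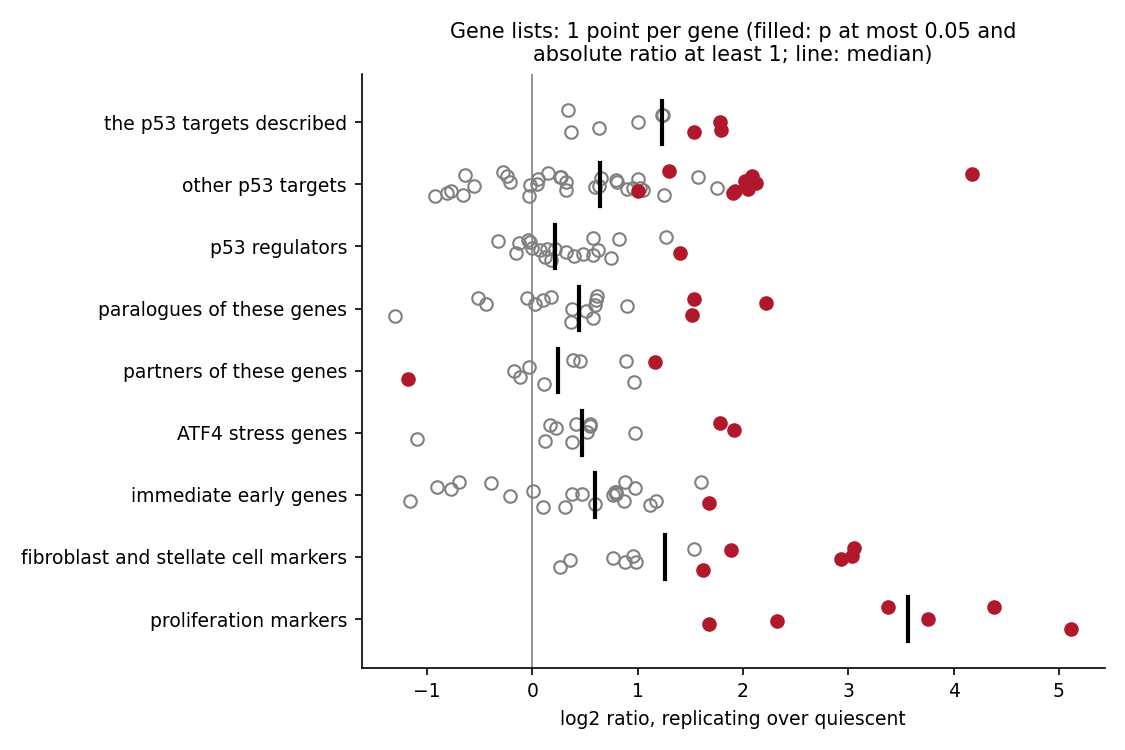
Log2 ratio of replicating over quiescent β-cells (horizontal axis) for each gene of 9 lists (vertical axis, scattered within a list to separate points). Filled points passed the call, and black lines are medians. The p53 targets described have a median of 1.23, the other p53 targets 0.64, the fibroblast and stellate markers 1.26 and the proliferation markers 3.57.

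Close relatives of the 9 genes, which are not all p53 targets, gave 3 higher (16.7%, beside 5.73% of all genes) and 0 lower of 18. Their median was 0.44. *Sesn3* was higher (1.53, SE 0.41), unlike *Sesn1* and *Sesn2*, which did not pass, but the difference between the sestrins was not tested. *Phlda2*, an imprinted PH domain gene related to *Phlda3*, gave 2.22 (SE 0.46), which passed, and -0.95 (SE 0.60), which did not, at its 2 probes. *Btg3* passed with 1.51 (SE 0.49). *Gadd45b* (0.61), *Gadd45g* (0.18), *Tp53inp2* (0.10), *Ccng2* (0.38, well above background on 4 arrays) and *Btg1* (0.90) did not pass at their brightest probes. Of 10 partner proteins, the GATOR2 subunit genes *Seh1l* (1.17, SE 0.41) and *Wdr59* (-1.18, SE 0.44) passed in opposite directions. The 1 higher is 10% of the list, beside 5.73% of all genes, and 2.73% of all genes were lower.

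Over the 6 arrays, the mean profile of the 9 genes was most like those of *Sbk1*, *Reep5*, *Arf4*, *Ift46* and *Eif5a2*, with Pearson r of 0.998 to 0.999. Such values are common here: 2913 of 15265 genes (19.1%) had an r above 0.9 with this profile, and all of these points share the same 6 arrays, quiescent array 2 among them. Against the mean of the other 8, single genes had an r of 0.676 (*Sesn2*) to 0.988 (*Sesn1*), with *Gadd45a* at 0.788 and *Phlda3* at 0.807.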

How the data were processed

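The authors read the arrays with Feature Extraction 10.7.3.1, which gives an intensity, a local background and flags per spot, and they deposited a log2 value for each spot, corrected with normexp and then quantile normalized, which was used here. Recomputed from the deposited intensity with an offset of 50 they differed by at most 0.000245. Control spots and outlier spots were left out and spots of 1 probe averaged. Array files name 21753 probes, and RefSeq (GRCr8, names only) the rest.

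Each probe was fitted with limma 3.58.1 (lmFit, eBayes; R 4.3.3, with data.table in version 1.17.8 to read files) in a paired design that blocks on the islet preparation, following the study, and p adjusted by Benjamini-Hochberg over all 45598 probes. The labels give 1 replicating and 1 quiescent sample per preparation. Deviations of paired arrays correlated at 0.0561, 0.242 and 0.258. The fit was tested on simulated data with the same spread in both groups. That test cannot show how the fit behaves when quiescent arrays vary more than replicating ones, as they did here. All arrays shared 1 slide and scan, so no such block was fitted. The number of arrays limits the precision. Python scripts drew the figures and read the RefSeq promoters.

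The 9 genes, the lists and the tests were chosen with earlier results of these data known. Named genes are the 9 and, of each other list, up to 6 past the threshold by smallest p. *Mdm4*, the closest paralogues and the 5 genes of highest likeness were named as well. Not every such gene is reported. Cell type markers were named by no single rule, some after their values were seen. Of the targets listed, *Ercc5* and *Sco2* were not analysed here.

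Alternatives were normexp offsets of 0 and 16, values recomputed at 50, 75th percentile scaling of these or of the processed signal, cyclic loess, well measured probes only, outlier spots kept, a variance trend, no block, the median over probes, each preparation left out, and, chosen after seeing the data, quiescent array 2 left out without block.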

Additional observations from a re-analysis of the deposited data

How the results depend on the processing

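The count of p53 targets described that were higher was 5 without preparation 3 and 2 to 5 with each preparation left out; none was lower under any setting. With each preparation left out their median ratio was 0.53 to 1.66, the count of other p53 targets higher was 5 to 14 and lower 0 to 2. The share of all genes called higher was then 1.64% to 13.9%. With the processed signal 1 other p53 target was lower. *Sesn1* turned to -0.29 with the processed signal and *Sesn2* to -0.067 without preparation 2 (-0.067 to 0.55 with each left out); the cause was not tested. Over the 9 genes and 15 settings, 122 ratios kept direction and side of the threshold, 5 lost the call (all *Mdm2*), 6 gained one and 2 reversed. Without the replicate block, which leaves out the pairing, *Mdm2* lost its call (adjusted p = 0.541 in limma) and 2 genes were higher.

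Over all probes, 99 had an adjusted p under 0.05 without the block, 61 with a variance trend, 204 with cyclic loess, 719 with 75th percentile scaling of normexp values, 84 without preparation 2 and 151 without quiescent array 2, and 0 as reported. Probes higher numbered 518 without preparation 1 and 5112 without preparation 3; probes lower numbered 63, 813 and 5633 without preparations 1, 2 and 3, 878 without the block and 267 without quiescent array 2. With 3 arrays a group, wide intervals limit what the 6 genes that did not pass can show, and signal over background limits *Sesn1*.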

Other observations

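Other stress genes were examined beside the p53 targets. Of 12 genes controlled by ATF4, the transcription factor of the integrated stress response, 2 were higher in replicating cells and 0 lower. That is 16.7% higher, beside 5.73% of all genes, and the median log2 ratio was 0.47. Both genes that were higher belong to serine synthesis. *Psat1*, the phosphoserine aminotransferase, read 12.42, 12.32 and 12.29 on the replicating and 10.59, 9.15 and 11.53 on the quiescent arrays (ratio 1.91, adjusted p = 0.475 in limma). *Phgdh*, the phosphoglycerate dehydrogenase, gave 1.78 (SE 0.46) and 1.73 (SE 0.37) at its 2 probes. In both genes the groups did not overlap. *Atf4* (0.97), *Asns* (0.55) and *Ddit3* (0.17), chosen after their values were seen, did not pass. *Slc7a11*, the only 1 of the 12 with a ratio below 0 (-1.10), had no usable value on quiescent array 2 and did not pass.

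Immediate early genes, which cells switch on within minutes of a stimulus such as tissue dissociation, gave 1 higher and 0 lower of 23. That is 4.35% higher, near the 5.73% of all genes. Their median was 0.60 (0.62, 0.90 and -0.06 by preparation). The gene that passed was *Ier3* (1.68, SE 0.58, adjusted p = 0.475 in limma), which read 10.43, 10.06 and 10.29 on the replicating and 9.23, 6.84 and 9.68 on the quiescent arrays. *Fos*, chosen after its values were seen, went in different directions by preparation (0.68, 2.86 and -1.16).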
